A study of Mus musculus with 30 samples.

Results

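The genes described are those that code for the proteins of the cytosolic ribosome, read in RNA from mouse hypothalamus. They were chosen by name: protein-coding genes called Rpl or Rps followed by a digit, with Rpsa, Rplp0, Rplp1 and Rplp2, leaving out the Rps6 kinase genes and names ending in -ps. The rule found 87 genes among 55401, and a gene was read in a count table where every library held at least 10 counts of it. On that minimum 75 genes were read in the fasting table, 75 in the refeeding table and 81 in the 1-month table, and 74 in all 3. Among the 87 names are Rps19bp1, whose product binds Rps19, and Rps23rg1, a retrogene of Rps23, which are not ribosomal proteins and stay in the counts where they were read.

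All 30 libraries came from wild-type B6 (C57) mice, in 9 groups. The fasting table held fed mice (n = 3), mice fasted for 24 h (n = 3), mice fasted for 72 h (n = 3) and mice fasted for 72 h with cold treatment at 18 C (n = 3). The refeeding table held mice refed for 1 h (n = 3), 12 h (n = 3) or 1 week (n = 4), each after a fast of 72 h. The 1-month table held mice refed for 1 month after a 72 h fast (n = 4) and fed controls (n = 4). The labels used here give no ages and do not say whether each library is 1 animal, so p-values measure the spread between libraries, which may be technical. Ribosomal RNA was depleted from total RNA before library preparation, so the ribosome is seen here through the mRNAs of its proteins. In such bulk RNA, fewer cells of a type and less RNA per cell cannot be told apart.

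A cytosolic ribosome has a small (40S) subunit, built with the Rps proteins, and a large (60S) subunit, built with the Rpl proteins, and the mRNAs of these proteins are short and abundant in nearly every cell. Most begin with a run of pyrimidines, the 5' terminal oligopyrimidine (5'TOP) tract, through which the kinase mTORC1 and the protein Larp1 adjust their translation and stability to the supply of nutrients. In the hypothalamus mTORC1 is known as one of the sensors of feeding state.

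The sequences around the start sites are shown because the start carries this tract. They come from RefSeq on GRCm38.p6, whose table held 67 of the 87 genes with 79 starts. Each covers 30 bases before and 15 after the start, and capitals mark the longest run of at least 5 pyrimidines that ends no more than 10 bases before the start.
Rpl7a, chr2:26910777-26910821, plus strand: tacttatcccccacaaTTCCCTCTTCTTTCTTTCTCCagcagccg
Rps6, chr4:86857353-86857397, minus strand: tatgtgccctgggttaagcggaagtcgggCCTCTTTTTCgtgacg
Rpl14, chr9:120571487-120571531, plus strand: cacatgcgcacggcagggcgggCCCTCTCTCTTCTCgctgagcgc
Rpl15, chr14:18270972-18271016, minus strand: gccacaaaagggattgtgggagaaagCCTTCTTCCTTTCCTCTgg
Rplp2, chr7:141447621-141447665, plus strand: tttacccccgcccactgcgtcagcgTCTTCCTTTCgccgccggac
Rps26, chr10:128626492-128626536, minus strand: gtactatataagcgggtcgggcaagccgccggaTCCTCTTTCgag
Rpl22, chr4:152325696-152325740, plus strand: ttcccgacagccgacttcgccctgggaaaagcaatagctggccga
Rpl22l1, chr3:28805478-28805522, plus strand: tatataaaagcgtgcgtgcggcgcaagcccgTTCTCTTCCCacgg
Rpl7l1, chr17:46782642-46782686, minus strand: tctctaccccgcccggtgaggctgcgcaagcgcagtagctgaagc
Rpl22 and Rpl7l1 have no such run in the printed window. For Rpl22 2 starts are listed, and only the one nearest the annotated start of the gene is printed. Over all listed starts, a run of at least 6 pyrimidines on the transcript strand between 5 bases before and 11 after the start was present at 29 of 79 starts of these genes (36.7%) and at 13.7% of all 32851 starts. The letters CTTTCC, searched on the transcript strand within 10 bases of the start and partly overlapping such runs, were at 12.7% of the genes' starts and 0.837% of all starts. CCGGAAG, letters bound by ETS factors, was found on either strand in the 300 bases of each entry at 34.2% of the genes' starts and 8.86% of all starts. These matches describe letters in the windows and nothing of what binds there.

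The tissue label was checked against 10 hypothalamic neuron markers, all detected in every group, with a summed level of 177 to 314 CPM in the fasting table and 311 to 519 CPM in the refeeding table (CPM, a share of a library's counts after TMM scaling). Striatal neuron markers were present as well, at 339 to 796 and 388 to 1343 CPM. In the 1-month table the hypothalamic markers summed to 807 to 1144 CPM and the striatal markers to 164 to 225 CPM. There the striatal sum was the lower one, while in most libraries of the other tables it was the higher one. Depth was 27111216 to 43397395 counts in the fasting libraries, 26115967 to 34051433 at 1 h and 12 h of refeeding, 46909406 to 64269426 at 1 week and 9347942 to 13813956 in the 1-month table. The genes read took 0.596% to 1.14% of a library's counts in the fasting table, 0.544% to 0.794% in the refeeding table and 1.06% to 1.51% in the 1-month table.

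In all 13 of the 87 genes were unread in at least 1 table. Rpl13, Rpl24, Rpl35 and Rpl35a, parts of the 60S subunit, had 0 to 2 counts in every fasting and refeeding library but 753 to 3821 in the 1-month libraries, and another gene overlaps at least 98.7% of each span. Rpl36al was likewise unread in the first 2 tables (at most 6 counts) and read in the third (440 to 725), with an overlap of 92.4%. Rpl13a showed the opposite, with 158 to 411 counts in the first 2 tables and 2 to 15 in the third. Rpl7l1, whose span another gene overlaps whole, was read in all 3 tables (649 to 1090, 700 to 1790 and 253 to 421 counts). The cause of these differences between tables was not tested, and levels of the 1-month table are not compared with the others. Rps10, 76.9% of whose span another gene overlaps, had at most 10 counts in any library. Rpl10l and Rpl39l, retrogenes best known from testis, had 0 to 4 counts, and Rps27rt 0 to 18. Just inside the minimum lay Rps23rg1 in the 1-month table (15 to 43 counts). The read genes with the lowest counts in the other tables were well above the minimum. They were Rps27l in the refeeding table (102 to 319) and Rps19bp1 in the fasting table (137 to 249). Rps23rg1 was just outside the minimum in the fasting table, at 3 to 41 counts.

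Rpl3l, the striated muscle paralog of Rpl3, was unread, with 102 counts in fed library 2 and 7 to 22 in the other 11 fasting libraries, or 3.46 CPM against 0.214 to 0.626. That library also held 1129 CPM of skeletal muscle markers, against 0.951 to 15.5 in the others, and 728 CPM of liver markers against 0.795 to 129. Acta1 of the 6 muscle markers was at 0 in all fasting groups. The part of these tissues in the other ribosomal protein levels of fed library 2 was not tested.

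The ribosomal protein genes moved as a block from library to library, also among libraries of the same group. The summed level of the 75 genes was 9665, 10004 and 7150.5 CPM in the fed libraries 1 to 3, 7064, 11672 and 7344 CPM at 24 h, 6448, 6212 and 5878 CPM at 72 h and 6349.6, 6219 and 7229 CPM with cold. Fed library 3 sat at the level of the lower pair of 24 h libraries, and 24 h library 2 stood above every other. Of the 75 genes 69 had their highest level of the fasting table in 24 h library 2, and 53 their lowest in 72 h library 3. In the refeeding table the sums were 7435, 7679 and 6761 CPM at 1 h, 6833, 6322 and 5471 CPM at 12 h and 7112, 7824, 7408 and 6662 CPM at 1 week, and 66 genes were lowest in 12 h library 3. After removing each group's mean, a gene's log2 level followed the mean of the other members with a median Pearson r of 0.98 over 12 fasting libraries (lowest 0.82, Rpl13a), 0.93 over 10 refeeding libraries (lowest 0.38, Rpl13a) and 0.81 over 8 1-month libraries (lowest -0.05, Rps23). These r describe genes that share libraries, scaling and depth.

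**Figure D1:**
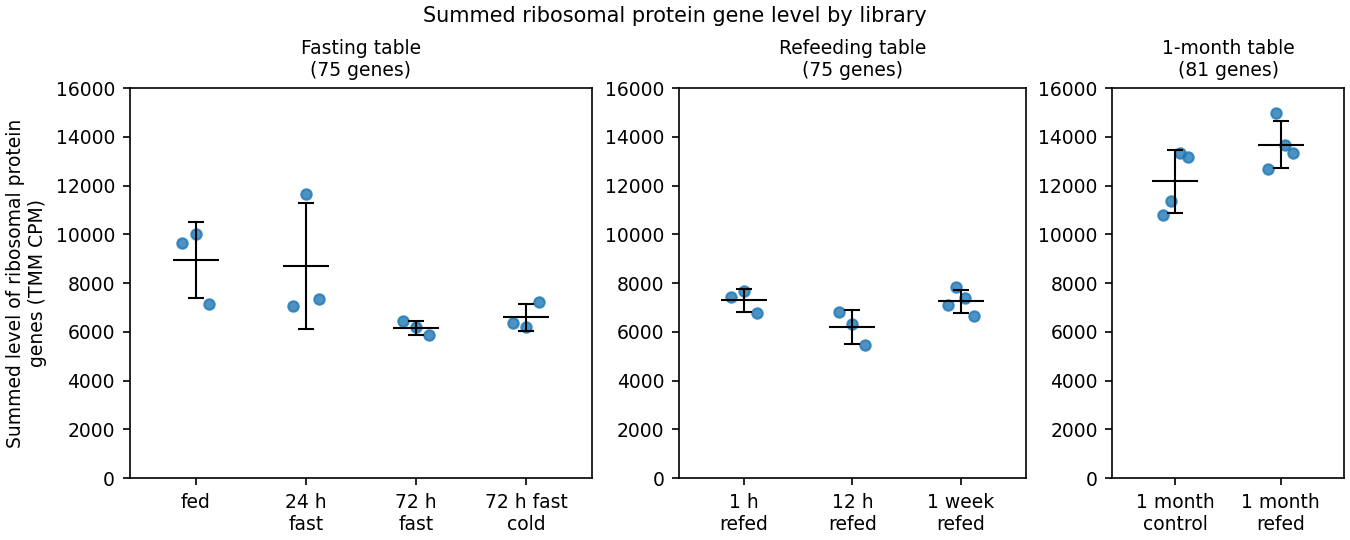
Summed TMM-scaled CPM of the ribosomal protein genes read in each table (vertical axis), 1 point per library, by group, with the group mean ± SD. The 72 h fast libraries lie between 5878 and 6448 CPM, below the 3 fed libraries, and 24 h library 2 lies at 11672 CPM.

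Within most groups of the fasting and refeeding tables deeper libraries tended to have a lower share, but not in all. In 4 of the 7 groups of the fasting and refeeding tables the deepest library had the lowest share of ribosomal protein counts, and in 4 of 7 the shallowest had the highest. With cold the order was the reverse, with 0.692% in the deepest library and 0.604% in the shallowest, and in mice refed for 1 month the deepest library had the highest share (1.51%). The library that stood highest, 24 h library 2, also had the largest share of counts from other protein-coding genes under 5 kb in span (4.62%, against 2.86% to 4.14% in the other fasting libraries) and the highest summed level of mitochondrial ribosomal protein genes. The part of depth in the group differences was not tested.

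After 24 h without food no ribosomal protein gene was called. A gene is called where its Benjamini-Hochberg adjusted p over all genes, from edgeR's quasi-likelihood test, is below 0.05. In brackets after a gene stand its log2 fold change ± SE and that adjusted p, and levels are means ± SD. With edgeR 0 of 75 passed and 2 of 75 had an unadjusted p under 0.05, against 0.0343% and 10.4% of 20408 genes tested, and DESeq2 called 0. The median log2 fold change (24 h over fed) was -0.02, beside 0.00 for all genes, and was -0.29 without 24 h library 2. The value farthest above 0 was that of Rpl39, a small protein lining the exit tunnel, which was at 43.7, 44.6 and 29.7 CPM in fed libraries and 35.4, 119 and 42.4 CPM at 24 h (0.74 ± 0.37, adjusted p = 0.524). Its 24 h mean rests on library 2. The value farthest below was that of Rpl19 (149 ± 26.8 and 114 ± 15.2 CPM, n = 3 each; -0.39 ± 0.14, adjusted p = 0.374).

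At 72 h of fasting ribosomal protein genes were lower than in fed mice. Of the 75 genes 22 were called lower and 0 higher (edgeR), beside 7.78% and 7.28% of 20408 genes called lower and higher. All 75 log2 fold changes (72 h over fed) were negative, from -0.81 to -0.12 with a median of -0.54, a fold of 0.689, while the median of all genes was 0.01. The 72 h libraries lay below all fed libraries for 62 of the 75 genes, which held for 20.6% of all genes tested. Of 30 small subunit genes 7 were called lower (median -0.52) and of 44 large subunit genes 15 (median -0.58).

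Among the large subunit genes, Rpl19 was at 173, 152 and 120.1 CPM in fed libraries and at 101, 90.3 and 87.5 at 72 h (-0.68 ± 0.14, adjusted p = 0.0133). Rpl14 was at 208, 186 and 152 CPM and then at 121, 121 and 115 (-0.61 ± 0.13, adjusted p = 0.0138). In both genes the groups did not overlap, and fed library 3 was the closest to the fasted mice. Rpl21 (-0.73 ± 0.16, adjusted p = 0.0172) and Rpl27a (-0.63 ± 0.15, adjusted p = 0.0219) were also called, and Rpl26 was not (-0.75 ± 0.24, adjusted p = 0.0513).

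Of the small subunit, Rpsa, the laminin receptor protein of the 40S subunit, had 403, 427 and 317 CPM in fed libraries and 256, 264 and 234 at 72 h (-0.61 ± 0.15, adjusted p = 0.0229). Rps6, the substrate of S6 kinase downstream of mTORC1, had 269, 276 and 206 CPM and then 172, 175 and 170.3 (-0.54 ± 0.16, adjusted p = 0.0379). The fed libraries spread more widely than the fasted ones in both genes, and no fed library reached the fasted range. The P stalk genes, whose proteins recruit translation factors to the 60S subunit, were not called: Rplp0 (-0.38 ± 0.18, adjusted p = 0.16), Rplp1 (-0.64 ± 0.22, adjusted p = 0.0691) and Rplp2 (-0.21 ± 0.17, adjusted p = 0.393).

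Among the paralogs that could be read and their parents, Rpl22 alone was called. Rpl22, a 60S protein whose product binds the mRNA of its paralog Rpl22l1, was at 51.5, 47.8 and 38.2 CPM and then at 33.2, 31.9 and 30.5 (-0.52 ± 0.15, adjusted p = 0.0338). Rpl22l1 was at 8.79 ± 2.39 and 5.27 ± 0.364 CPM (-0.73 ± 0.34, adjusted p = 0.142). Rps27l had the lowest value of all members (-0.81 ± 0.28, adjusted p = 0.0619), beside Rps27 (-0.47 ± 0.29, adjusted p = 0.264). Rpl7l1 had the value nearest 0 (-0.12 ± 0.11, adjusted p = 0.447), beside Rpl7 (-0.56 ± 0.18, adjusted p = 0.0541), and a gene on the opposite strand overlaps its whole span. The differences between paralog and parent were not tested.

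**Figure D2:**
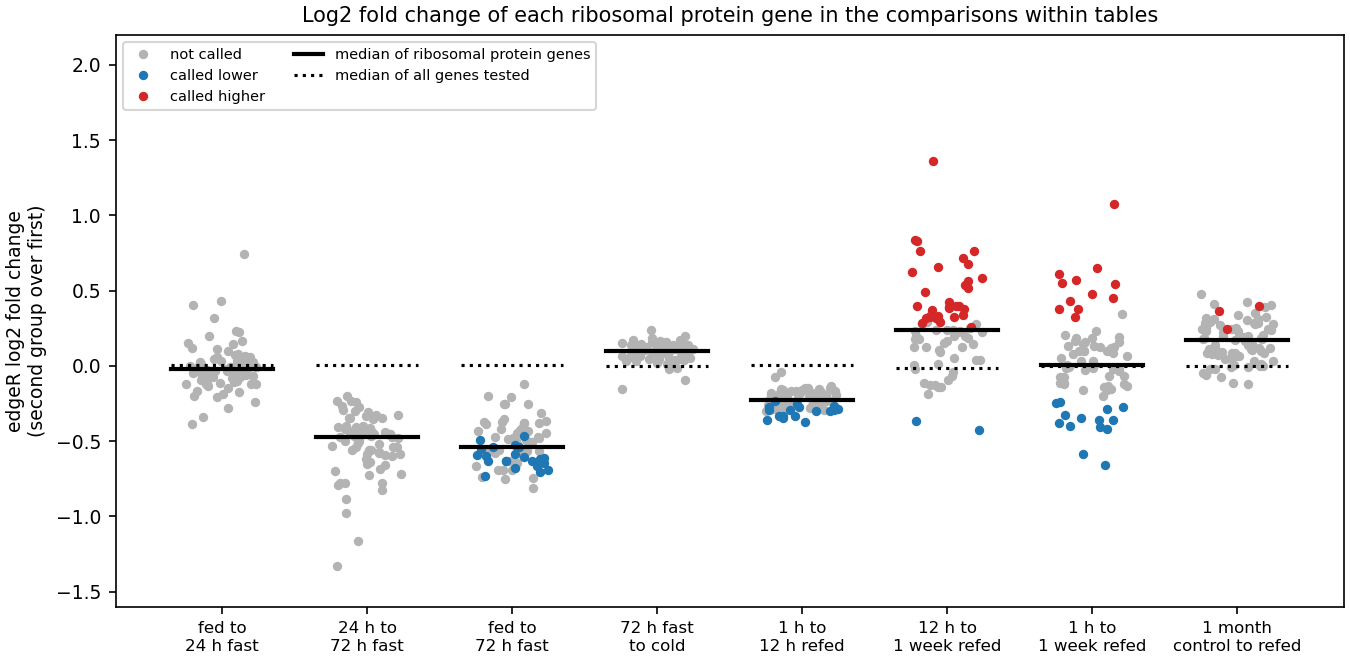
edgeR log2 fold changes (vertical axis, second group over first) of every ribosomal protein gene read, 1 point per gene, for the comparisons within tables, with genes called lower or higher in colour and the medians of these genes and of all genes as lines. All 75 points lie below 0 from 24 h to 72 h, from fed to 72 h and from 1 h to 12 h of refeeding.

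The number of genes called at 72 h depended on single libraries, while the direction did not. Leaving out fed library 3 gave 57 genes. Leaving out fed library 1, fed library 2 or 72 h library 3 gave 0, and leaving out 72 h library 1 or 2 gave 4 or 2. The median stayed between -0.66 and -0.45, with all 75 values negative each time. With the fed and 72 h libraries fitted alone 59 genes were called lower, and with DESeq2 50. Calls over all genes tested moved as well, from 3072 with all libraries to 5446 without fed library 3. They numbered 830 without fed library 1, 456 without fed library 2 and 434 without 72 h library 3. Without 72 h library 1 or 2 they numbered 1056 or 712, with the 2 groups alone 3909 and with DESeq2 4695.

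From 24 h to 72 h of fasting all 75 values were negative but the test did not pass. With edgeR 0 of 75 genes were called (background 1.63% of 20408) and 60 had an unadjusted p under 0.05 (background 23.5%). DESeq2 called 24 genes lower, and over all genes it called 1725 in either direction, where edgeR called 333. The median was -0.47 and became -0.23 without 24 h library 2. Other protein-coding genes under 5 kb had a median of -0.28. Striatal (765 to 796 and 339 to 387 CPM) and endothelial markers (190 to 221 and 162 to 181 CPM) were lower at 72 h without overlap. So were the pericyte and smooth muscle, choroid plexus, blood, liver, skeletal muscle and pituitary lists. The hypothalamic, meningeal, oligodendrocyte and microglia lists overlapped. The part of span and of these tissues in the values was not tested. The lowest adjusted p was that of Rpl22l1 (-1.16 ± 0.34, adjusted p = 0.0885), the lowest value that of Rpl39 (-1.33 ± 0.38, adjusted p = 0.0921) and the value nearest 0 that of Rpl8 (-0.20 ± 0.16, adjusted p = 0.479).

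Genes that work with the ribosome were read beside it from fed to 72 h. Of 14 other mRNAs with a 5'TOP tract 7 were called lower and 0 higher (median -0.40), among them the histone chaperone gene Nap1l1 (-0.41 ± 0.09, adjusted p = 0.0187) and Hnrnpa1, which codes for an RNA-binding protein (-0.38 ± 0.09, adjusted p = 0.0192). Of 24 translation initiation and termination factors 9 were called lower and 0 higher (median -0.29), led by the Eif3 subunits Eif3a (-0.54 ± 0.10, adjusted p = 0.00929) and Eif3c (-0.54 ± 0.10, adjusted p = 0.0105). Of 30 ribosome biogenesis genes 6 were called lower and 0 higher (median -0.20), led by the 40S maturation factor Tsr1 (37.0 ± 2.44 and 22.3 ± 0.220 CPM; -0.73 ± 0.10, adjusted p = 0.005) and nucleolin, Ncl (-0.47 ± 0.12, adjusted p = 0.0254).

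Of 72 mitochondrial ribosomal protein genes 15 were called lower and 1 higher (median -0.29). Among 21 genes of the mTORC1 pathway 4 were called lower and 1 higher (median -0.03). The lower ones included the GTPase Rragd, which helps bring mTORC1 to the lysosome (121 ± 26.3 and 66.9 ± 4.14 CPM; -0.86 ± 0.15, adjusted p = 0.00942), and the sestrin Sesn3 (-0.47 ± 0.11, adjusted p = 0.0232), and the higher one was Rps6kb2, an S6 kinase (1.02 ± 0.20, adjusted p = 0.0113). Fau, which codes for a 40S protein outside the naming rule, was called lower (-0.51 ± 0.16, adjusted p = 0.0454).

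Gene span and markers of several cell types moved with this comparison. Of the 75 genes 60 span up to 5 kb. Among the other protein-coding genes of that span 201 of 1469 (13.7%) were called lower and 22 higher, with a median of -0.28, while genes over 100 kb had a median of 0.18. The 5 pericyte and smooth muscle markers summed to 130 to 164 CPM in fed libraries and 54.7 to 64.3 CPM at 72 h, and the 5 endothelial markers to 234 to 256 and 162 to 181 CPM, with none at 0. The hypothalamic neuron markers overlapped between the groups, at 201 to 298 and 226 to 314 CPM, and the 7 striatal markers did not, at 499 to 789 and 339 to 387 CPM. Choroid plexus markers (45.1 to 219.6 and 17.3 to 28.6 CPM, Kcnj13 at 0), blood markers (7.35 to 16.2 and 0.841 to 2.33 CPM, Alas2 at 0) and microglia markers (102 to 137 and 77.4 to 92.0 CPM, P2ry12 at 0) did not overlap either, nor did the liver (2.01 to 728 and 1.45 to 1.58 CPM) and skeletal muscle lists (2.2 to 1129 and 1.45 to 2.00 CPM). All of these lists but the hypothalamic one were lower at 72 h. Depth was 27111216 to 36160453 counts in fed libraries and 31512969 to 43397395 at 72 h. The part of depth, of span, of these cell types and of the dissected tissue in the lower ribosomal protein levels was not tested.

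Cold treatment during the 72 h fast brought no call. With edgeR 0 of 75 genes passed and 0 had an unadjusted p under 0.05, where 0.0% of 20408 genes passed and 6.35% had such a p, and DESeq2 called 0. The median log2 fold change (cold over 72 h) was 0.10, beside 0.00 for all genes, and -0.00 with scaling by library totals only. Rpl22l1 had the highest value (0.24 ± 0.34, adjusted p = 0.967) and Rpl7l1 the lowest (-0.16 ± 0.11, adjusted p = 0.914). In each of the 7 comparison lists 0 genes were called.

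During the first day of refeeding ribosomal protein genes were lower at 12 h than at 1 h. Of the 75 genes 17 were called lower and 0 higher (edgeR), beside 7.14% and 7.08% of 19932 genes. All 75 values (12 h over 1 h) were negative, with a median of -0.23, a fold of 0.855, beside 0.00 for all genes. The 12 h libraries lay below all 1 h libraries for 29 of the 75 genes, against 16.3% of all genes. Of 44 large subunit genes 13 were called (median -0.24) and of 30 small subunit genes 4 (median -0.21).

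Rpl7a, a 60S protein whose gene holds 3 snoRNA genes, was at 149, 147 and 130.5 CPM at 1 h and at 115, 112 and 102 at 12 h (-0.37 ± 0.07, adjusted p = 0.00508). Rpl22 was at 28.5, 27.5 and 26.3 CPM and then at 22.6, 21.9 and 20.8 (-0.33 ± 0.07, adjusted p = 0.00689). In both genes the groups did not overlap, and their calls held under all 12 alternatives tried. Rpl38 (-0.28 ± 0.07, adjusted p = 0.0149) and Rpl37 (-0.36 ± 0.09, adjusted p = 0.0158), both of the 60S subunit, were called as well. The paralog Rpl7l1 was called (-0.25 ± 0.08, adjusted p = 0.0428), a call lost under 7 of 12 alternatives, and its parent Rpl7 was not (-0.23 ± 0.10, adjusted p = 0.131). Rpl22l1 (-0.28 ± 0.14, adjusted p = 0.198), Rpsa (-0.08 ± 0.08, adjusted p = 0.558), Rps6 (-0.20 ± 0.09, adjusted p = 0.138), Rplp0 (-0.16 ± 0.08, adjusted p = 0.221), Rplp1 (-0.17 ± 0.09, adjusted p = 0.197) and Rplp2 (-0.18 ± 0.10, adjusted p = 0.237) were not called either. The value nearest 0 was that of Rpl13a (-0.04 ± 0.17, adjusted p = 0.912), 88.6% of whose span another gene overlaps.

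Of the 22 genes called lower at 72 h of fasting and the 17 called lower at 12 h of refeeding, 4 were in both, among them Rpl21, Rpl22 and Rpl29. The 2 lists come from separate libraries. The shared genes are 18.2% of the 72 h list, where 17 of all 75 genes were called at 12 h. They are 23.5% of the 12 h list, where 22 of all 75 were called at 72 h. Neither share is above that over all 75 genes. The count at 12 h rested on single libraries too. Leaving out 12 h library 1, 2 or 3 gave 51, 8 or 2 genes, and leaving out 1 h library 1 or 2 gave 3 or 4. With the groups fitted alone 9 genes were called, and with DESeq2 26. Over all genes the calls numbered 2834 with all libraries and 3537, 1632 or 1314 without 12 h library 1, 2 or 3. Without 1 h library 1 or 2 they numbered 1716 or 1417, with the groups alone 2242 and with DESeq2 3346.

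In the same step 4 of 14 other 5'TOP mRNAs were called lower and 0 higher (median -0.20), led by the initiation factors Eif4b (259.7 ± 17.9 and 187 ± 21.3 CPM; -0.47 ± 0.09, adjusted p = 0.00352) and Eif3f (-0.41 ± 0.08, adjusted p = 0.00369). Of 30 biogenesis genes 7 were called lower and 0 higher (median -0.14), such as the RNA polymerase I subunit Polr1a (-0.26 ± 0.06, adjusted p = 0.0083) and the snoRNP protein Nop56 (-0.34 ± 0.08, adjusted p = 0.0109). Of 21 mTORC1 genes 5 were called lower and 0 higher, including its stress-induced inhibitor Ddit4 (-0.76 ± 0.14, adjusted p = 0.00395) and Tsc1 (-0.28 ± 0.06, adjusted p = 0.00697). Of 24 initiation and termination factors 4 were called lower, and of 6 snoRNA host genes 2, Snhg12 (-0.40 ± 0.10, adjusted p = 0.0151) and Gas5 (-0.32 ± 0.10, adjusted p = 0.0498). Of 72 mitochondrial ribosomal protein genes 4 were lower and 5 higher (median 0.01), near the 7.14% and 7.08% of all genes. Of other protein-coding genes under 5 kb 9.95% were called lower and 2.74% higher, with a median of -0.10. The 5 microglia markers summed to 86.2 to 91.8 CPM at 1 h and 110.1 to 130.3 CPM at 12 h, with P2ry12 at 0 in both. Oligodendrocyte markers (2848 to 3085 and 2468 to 2879 CPM) and striatal markers (500.2 to 1161 and 1039.7 to 1343 CPM) overlapped between the groups. The part of span and of these cell types in the lower levels was not tested.

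After 1 week of refeeding many ribosomal protein genes were higher than at 12 h. Of the 75 genes 33 were called higher and 2 lower (edgeR), beside 6.56% and 5.0% of 19932 genes. The values ran from -0.43 to 1.36 with a median of 0.24, a fold of 1.18, beside -0.01 for all genes. In 33 genes every 1 week library lay above every 12 h library, against 11.9% of all genes. Of 30 small subunit genes 16 were higher and 1 lower (median 0.29), and of 44 large subunit genes 17 were higher and 1 lower (median 0.23).

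Rpl22l1 had the highest value. It was at 7.61, 5.88 and 5.43 CPM at 12 h and at 16.9, 18.5, 14.7 and 14.4 at 1 week, a fold of 2.57 (1.36 ± 0.13, adjusted p = 0.000139). Rpl22 was at 22.6, 21.9 and 20.8 CPM and then at 36.1, 37.5, 35.8 and 33.6, a fold of 1.64 (0.72 ± 0.07, adjusted p = 0.000118). Both genes of the pair rose, and neither overlapped between the groups. Of the P stalk, Rplp2 went from 34.4, 30.1 and 25.7 CPM to 51.8, 56.2, 57.5 and 48.4 (0.83 ± 0.09, adjusted p = 0.000235) and Rplp1 rose as well (0.62 ± 0.08, adjusted p = 0.000556). Rplp0, which anchors both to the ribosome, was not called (0.00 ± 0.08, adjusted p = 0.979).

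Among the small subunit genes called higher was Rps27a, whose protein is made as a fusion with ubiquitin (50.1 ± 8.60 and 89.4 ± 9.14 CPM; 0.84 ± 0.11, adjusted p = 0.00131). Rps6 rose (0.28 ± 0.08, adjusted p = 0.0372), a call lost under 6 of 13 alternatives, and Rpsa was not called (0.20 ± 0.07, adjusted p = 0.085). Rps27l rose (0.53 ± 0.13, adjusted p = 0.0205), a call lost without 12 h library 2 or 3 or 1 week library 2, where Rps27 was not called (-0.13 ± 0.09, adjusted p = 0.405). Against the block, Rps26, which lies at the mRNA exit of the 40S subunit, went from 85.5, 79.5 and 71.3 CPM to 56.8, 59.6, 59.4 and 58.5 (-0.43 ± 0.06, adjusted p = 0.00133). Rpl29, a 60S protein, went from 91.6, 83.9 and 74.0 to 61.8, 65.1, 70.7 and 60.1 CPM (-0.37 ± 0.08, adjusted p = 0.0135), a call lost without 12 h library 2. In both genes every 1 week library lay below every 12 h library.

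**Figure D3:**
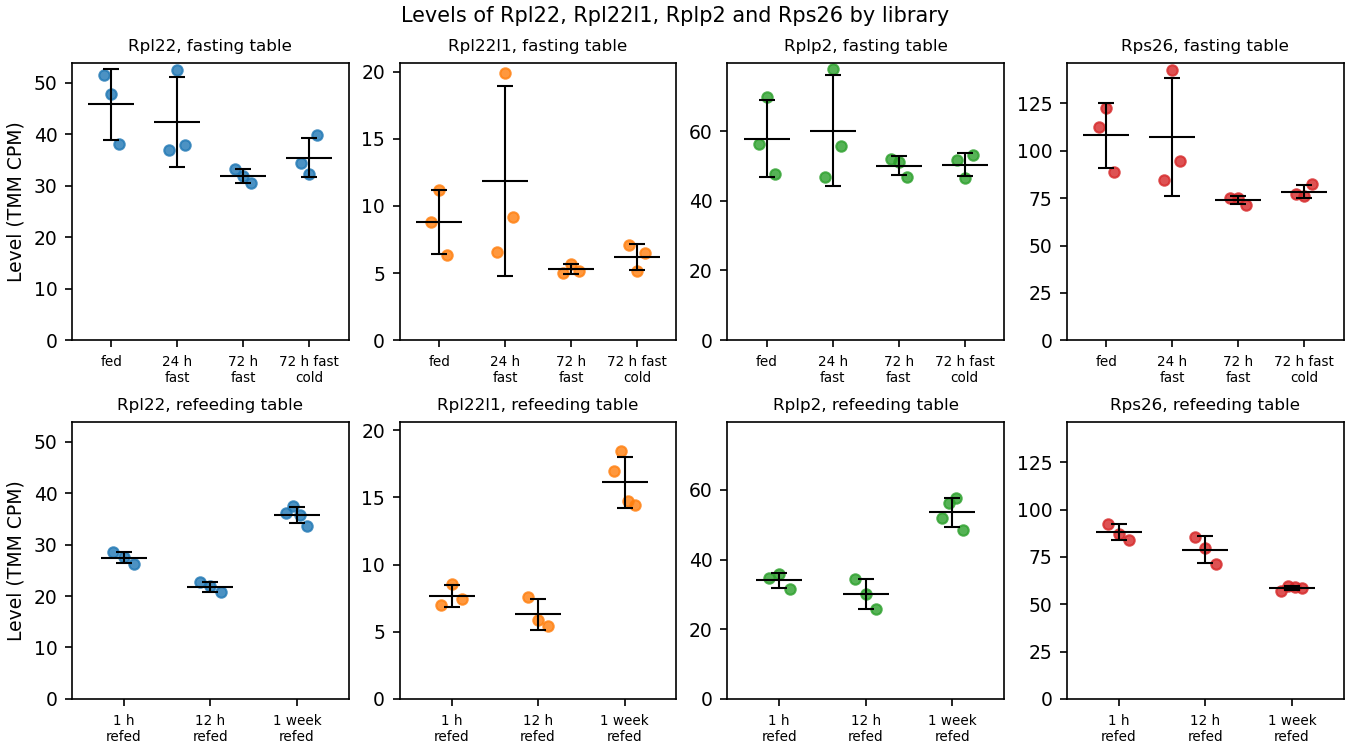
TMM-scaled CPM (vertical axes) of selected ribosomal protein genes in each library of the fasting and refeeding tables, with group mean ± SD; the tables were scaled separately. At 1 week Rpl22l1 lies between 14.4 and 18.5 CPM, above the 5.43 to 8.53 CPM of 1 h and 12 h.

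The count of 35 calls became 20 or 16 when 12 h library 2 or 3 was left out, and 23 when 1 week library 2 was. In these fits the calls over all genes went from 2304 to 1122 or 589, and to 1296. Of the 5'TOP list 6 of 14 were called higher and 0 lower (median 0.16), led by the elongation factor subunit Eef1b2 (33.3 ± 3.79 and 60.2 ± 4.54 CPM; 0.86 ± 0.08, adjusted p = 0.00014) and Hnrnpa1 (0.58 ± 0.08, adjusted p = 0.000748). Of 24 initiation and termination factors 9 were higher (median 0.21), of 30 biogenesis genes 6 (median 0.16, with Nop56 at 0.47 ± 0.07, adjusted p = 0.00151), and of 72 mitochondrial ribosomal protein genes 14 (median 0.11). Of the mTORC1 genes 0 of 21 were called higher and 1 lower, Sesn3 (-0.23 ± 0.06, adjusted p = 0.0234).

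Depth, blood and meninges differed between these groups. The 1 week libraries held 46909406 to 64269426 counts, against 26115967 to 34051433 at 12 h. The 5 blood markers summed to 76.4 to 119.5 CPM at 12 h and 401 to 1257 CPM at 1 week, with Alas2 at 0 in both, and the 5 meningeal markers to 48.6 to 57.3 and 83.3 to 121 CPM. Other protein-coding genes under 5 kb were called higher in 13.9% and lower in 3.29%, with a median of 0.09. The part of depth, blood, meninges and span in the higher levels was not tested.

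Compared with 1 h of refeeding, 1 week showed no common direction. Of the 75 genes 14 were called lower and 12 higher (edgeR), beside 13.5% and 13.5% of 19932 genes, and the median was 0.01. The comparison shares its 1 week libraries with that from 12 h. Depth was 28478043 to 33077615 counts at 1 h and 46909406 to 64269426 at 1 week. Blood markers stood at 68.4 to 123 CPM at 1 h and 401 to 1257 CPM at 1 week. Meningeal markers (30.1 to 51.6 and 83.3 to 121 CPM) were also higher at 1 week without overlap. So were microglia markers (86.2 to 91.8 and 105.6 to 124.9 CPM). Endothelial markers (81.8 to 131 and 68.2 to 78.4 CPM) were lower without overlap, as were choroid plexus markers (34.0 to 35.8 and 31.3 to 32.7 CPM). The part of depth and of these tissues and cell types in the values was not tested. Rps26 was at 92.5, 87.1 and 84.1 CPM at 1 h (-0.59 ± 0.06, adjusted p = 3.12e-05) and Rpl29 at 114, 98.8 and 92.9 (-0.66 ± 0.08, adjusted p = 9.98e-05), both lower at 1 week. Also lower were Rpl41, a very short ribosomal protein (199 ± 15.4 and 150.2 ± 7.18 CPM; -0.41 ± 0.07, adjusted p = 0.000748), Rpl28 (-0.38 ± 0.07, adjusted p = 0.00114) and Rps27 (-0.42 ± 0.09, adjusted p = 0.00434). Rpl22l1 was higher, from 6.97, 8.53 and 7.44 CPM (1.08 ± 0.13, adjusted p = 5.94e-05), as were Rplp2 (0.65 ± 0.09, adjusted p = 0.000172) and Rps29 (0.54 ± 0.08, adjusted p = 0.000372). The calls of these 8 genes held under all 13 alternatives.

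At 1 month after the fast few ribosomal protein genes were called. Of 81 genes 3 were called higher and 0 lower (edgeR), beside 6.37% and 3.76% of 14867 genes. Of the 81 values (refed over control) 72 were positive, with a median of 0.17 beside 0.00 for all genes. Rpl41 was at 195, 208, 223 and 225 CPM in controls and at 239.8, 249, 300.1 and 309 in refed mice (0.36 ± 0.09, adjusted p = 0.0126), with no overlap. Rpl15 was at 125, 120.4, 141 and 141 CPM and then at 142, 169, 152 and 161 (0.25 ± 0.08, adjusted p = 0.0492). Rpl18 was at 90.3, 78.4, 102 and 127 CPM and at 122, 139, 136 and 129 (0.40 ± 0.12, adjusted p = 0.0439), with overlap, and a gene on the opposite strand covers 47.3% of its span. Of 14 alternatives the Rpl41 call was lost under 2, the Rpl15 call under 8 and the Rpl18 call under 10.

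Rplp0 (0.42 ± 0.13, adjusted p = 0.0532), Rps27l (0.48 ± 0.17, adjusted p = 0.0842), Rps6 (0.19 ± 0.07, adjusted p = 0.0957) and Rpsa (0.23 ± 0.10, adjusted p = 0.148) were not called, and neither were Rpl22l1 (35.4 ± 6.82 and 37.7 ± 7.59 CPM; 0.10 ± 0.15, adjusted p = 0.718) and Rpl22 (0.15 ± 0.16, adjusted p = 0.607). Rpl36al, readable only here, had -0.04 ± 0.09, adjusted p = 0.78, beside its parent Rpl36a with 0.09 ± 0.11, adjusted p = 0.653. Rps23 had the lowest value (-0.12 ± 0.08, adjusted p = 0.346). Of the 81 genes 58 were highest in refed library 2 and 49 lowest in control library 2. The count of calls was 0 without refed library 4, 1 without control library 2 or 3 or refed library 2 or 5, 9 without control library 4 and 22 without control library 5. Over all genes the calls numbered 1506 with all libraries, 2856 without control library 5 and 775 to 1422 without any of the others. Refed library 2 had 64.7 CPM of liver markers, against 2.11 to 4.12 in the other 7 libraries, and all 4 control libraries were below all refed ones in this list. The 5 meningeal markers were at 61.8 to 139 CPM in control and 330 to 529 CPM in refed libraries. Without overlap, refed libraries were also higher in markers of choroid plexus (36.7 to 44.7 and 54.3 to 66.9 CPM), endothelium (196 to 240.1 and 243 to 312 CPM), pericytes and smooth muscle (78.4 to 87.4 and 95.2 to 212 CPM), microglia (129 to 168 and 169.8 to 190.3 CPM) and oligodendrocytes (1483 to 2099 and 2121 to 3179.8 CPM). The part of these tissues and cell types in the values was not tested. Of 14 other 5'TOP mRNAs 2 were called higher, Tpt1 (293 ± 25.2 and 391 ± 37.3 CPM; 0.41 ± 0.08, adjusted p = 0.00353) and Eif3h (0.38 ± 0.11, adjusted p = 0.0499).

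Comparisons between the fasting and refeeding tables were fitted on both tables joined, and there the table and the condition cannot be told apart. From the 72 h fast to 1 h of refeeding 22 of 75 genes were called higher and 6 lower (edgeR), beside 15.4% and 19.1% of 20966 genes, with a median of 0.20 beside -0.09 for all genes. With these groups fitted alone the counts were 44 and 10, and calls over all genes went from 7236 to 8450. Of other protein-coding genes under 5 kb 26.9% were called higher and 6.18% lower, with a median of 0.20. Blood (0.841 to 2.33 and 68.4 to 123 CPM) and striatal markers (339 to 387 and 500.2 to 1161 CPM) were higher without overlap. So were the choroid plexus, liver and pituitary lists. Endothelial (162 to 181 and 81.8 to 131 CPM) and oligodendrocyte markers (3681 to 3994 and 2848 to 3085 CPM) were lower. So was the pericyte and smooth muscle list. The other lists overlapped, with each table scaled separately. The part of span and of these tissues in the values was not tested. Rpl41 (1.27 ± 0.16, adjusted p = 1.02e-05) and Rps28, a small 40S protein (31.6 ± 0.508 and 69.2 ± 9.68 CPM; 1.13 ± 0.15, adjusted p = 1.70e-05), led the higher genes. Rpl10a (0.94 ± 0.13, adjusted p = 1.69e-05), Rpl28 (0.71 ± 0.12, adjusted p = 9.90e-05) and Rplp0 (0.63 ± 0.15, adjusted p = 0.00274) were also higher. In the other direction Rps21 (-0.97 ± 0.19, adjusted p = 0.000703), Rpl23 (-0.83 ± 0.17, adjusted p = 0.000651) and Rplp2 (-0.61 ± 0.15, adjusted p = 0.00306) were lower.

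From fed to 1 week refed 31 of 75 genes were called lower and 7 higher (edgeR), beside 22.9% and 19.8% of 20966 genes, with a median of -0.24. Other protein-coding genes under 5 kb were called lower in 21.7% and higher in 19.1%, with a median of -0.02. Depth was 27111216 to 36160453 counts in fed libraries and 46909406 to 64269426 at 1 week. Rps24 (317 ± 60.8 and 145 ± 10.1 CPM; -1.13 ± 0.14, adjusted p = 3.69e-06), Rpl17 (-1.01 ± 0.13, adjusted p = 3.77e-06), Rps26 (-0.91 ± 0.12, adjusted p = 6.80e-06) and Rpl21 (-0.80 ± 0.12, adjusted p = 2.18e-05) led the lower genes, and Rps27l had the lowest value (-1.25 ± 0.21, adjusted p = 7.35e-05). Rps4x (0.48 ± 0.14, adjusted p = 0.0107), Rpl22l1 (0.85 ± 0.26, adjusted p = 0.0117), Rps14 (0.53 ± 0.19, adjusted p = 0.0276) and Rps28 (0.40 ± 0.14, adjusted p = 0.0309) were higher, and each of these 4 calls was lost without fed library 3. Blood (7.35 to 16.2 and 401 to 1257 CPM) and hypothalamic markers (201 to 298 and 322 to 519 CPM) were higher without overlap. Endothelial (234 to 256 and 68.2 to 78.4 CPM) and pericyte and smooth muscle markers (130 to 164 and 44.6 to 49.8 CPM) were lower. So were the choroid plexus, oligodendrocyte and liver lists. The other lists overlapped, with each table scaled separately. The part of depth, span and these tissues in the values was not tested.

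**Figure D4:**
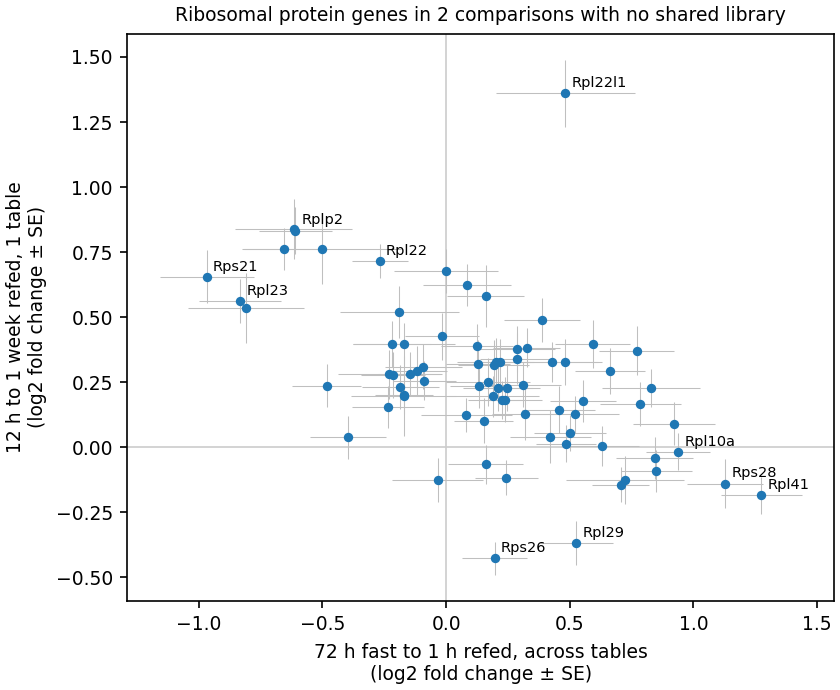
edgeR log2 fold changes of 75 ribosomal protein genes from 72 h fast to 1 h refed, fitted across tables (horizontal axis), against 12 h to 1 week refed, within the refeeding table (vertical axis), 1 point per gene. Rps21 and Rplp2 lie at the upper left, Rpl41 lies far to the right and Rpl22l1 lies apart at the top.

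Of all 75 genes 33 were called higher from 12 h to 1 week. Of the 6 genes called lower from 72 h to 1 h, 5 were among these 33 (83.3% and 15.2% of the lists). Of the 22 called higher from 72 h to 1 h, 4 were higher from 12 h to 1 week, 1 lower and 17 not called. Over the 75 genes these log2 fold changes, from 4 groups with no library in common, had a Pearson r of -0.52 and a Spearman rho of -0.53. These are correlations across genes, which are not independent replicates and share the libraries of each comparison, and the 1 h, 12 h and 1 week libraries share a table. The same correlations over all genes tested are not given here. For 63 of the 87 genes the files also list pseudogenes named after them, 320 in all and up to 24 for a gene, and the sources used here do not give how reads shared with such copies were assigned.

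**Figure D5:**
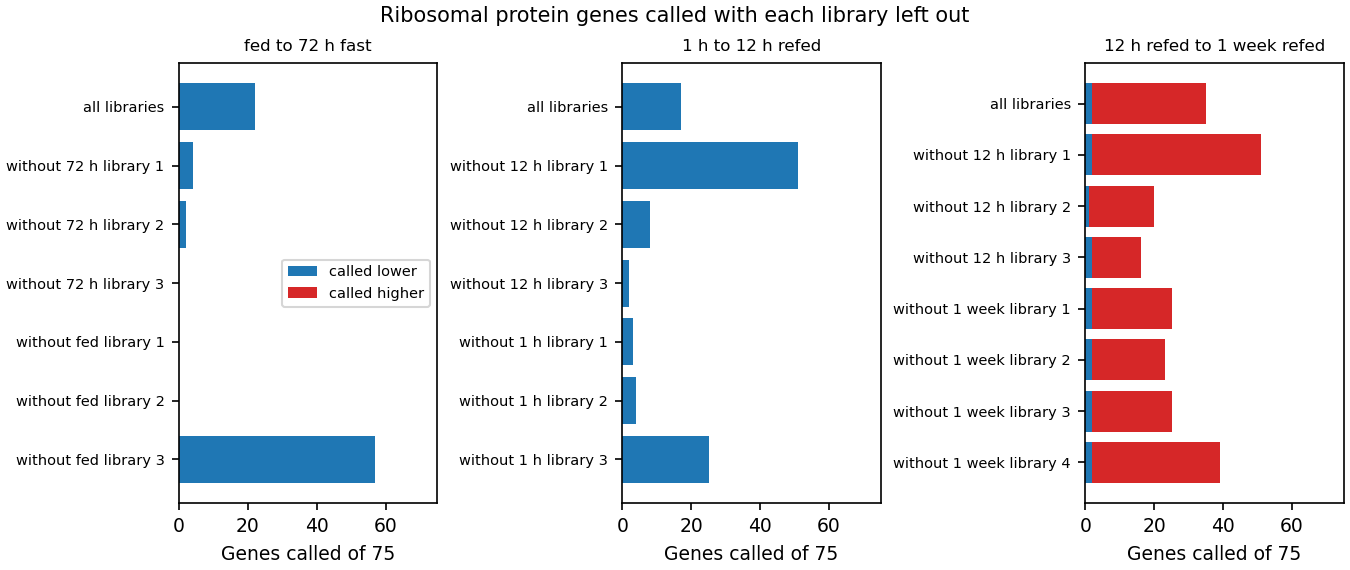
Number of the 75 ribosomal protein genes called by edgeR with all libraries and with each library left out in turn, for fed to 72 h fast, 1 h to 12 h refed and 12 h to 1 week refed. The first count goes from 0 to 57, the second from 2 to 51 and the third from 16 to 51. Calls over all genes tested, not shown, also changed between these fits.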

How the data were processed

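Gene counts were deposited by the authors in 3 count tables, with no normalization. Per the submitters' processing notes, HISAT2, featureCounts, edgeR and mm10 were used, with no versions given, and per the labels' protocols RNA was extracted with a Qiagen RNeasy kit and libraries were made with the NEBNext Ultra II Directional kit with rRNA depletion. The sources used here do not give whether counting used strand. Tables of the authors' own comparisons and 2 columns matching no sample were not used.

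Each table was fitted as a whole with edgeR 4.0.16 in R 4.3.3 (filterByExpr, TMM scaling, robust quasi-likelihood test, prior count 0.125), with Benjamini-Hochberg adjustment over all genes tested and a threshold of 0.05. The fasting and refeeding tables were joined for comparisons across them. The test was checked on simulated counts. Alternatives were DESeq2 1.42.0, other scalings, no low count filter, the 2 groups alone, a replicate block, a member minimum of 100 counts and each library left out in turn. Replicates were compared by chi-square over genes in 36 pairs, with 3.16 per degree of freedom at the lowest, so none were counted as 1 library.

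The members and gene lists were chosen with earlier results of these data known. Named genes are, in each direction, the 4 members called at the lowest adjusted p, then the 2 highest and the 2 lowest log2 fold changes, Rpsa, Rplp0, Rplp1, Rplp2, Rps6, the paralogs with their parents, and up to 2 called genes per list and direction. Some genes that this rule names are not reported here.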

Additional observations from a re-analysis of the deposited data

Results flagged for a closer look

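Among 52 sets of 4 libraries tested for a single value far from the rest, 2 were marked, both in mice refed for 1 month, and chance marks about 1 in 20 such groups. Rpl22 was at 25.9 CPM in refed library 2 and between 17.1 and 17.5 CPM in the other refed libraries. Rps6 was at 306 CPM in refed library 1 and between 354 and 363 CPM in the others.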

How the results depend on the processing

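The count of genes called moved by more than 1.5 times under these settings. DESeq2 called 24 genes from 24 h to 72 h of fasting, 50 from fed to 72 h, 26 from 1 h to 12 h of refeeding and 9 at 1 month. With the 2 groups fitted alone the counts were 59 from fed to 72 h, 9 from 1 h to 12 h and 54 from 72 h fast to 1 h refed. At 1 month scaling by library totals gave 6. Over all genes DESeq2 called 1725, 4695, 3346 and 1988 in its comparisons above, where the main fit called 333, 3072, 2834 and 1506. The 2 groups alone gave 3909, 2242 and 8450 over all genes, where the main fit gave 3072, 2834 and 7236. Library totals gave 1471 over all genes at 1 month. The cause was not tested. Calls over all genes also changed when single libraries were left out. With each library left out in turn, the counts ranged from 0 to 2 (24 h to 72 h), 0 to 57 (fed to 72 h), 2 to 51 (1 h to 12 h), 16 to 51 (12 h to 1 week), 19 to 26 (1 h to 1 week), 0 to 22 (1 month), 22 to 27 (72 h fast to 1 h refed) and 28 to 37 (fed to 1 week refed), and were 0 from fed to 24 h and with cold. The medians ranged from -0.29 to 0.09 (fed to 24 h), -0.61 to -0.23 (24 h to 72 h), -0.66 to -0.45 (fed to 72 h), 0.03 to 0.17 (cold), -0.33 to -0.14 (1 h to 12 h), 0.15 to 0.33 (12 h to 1 week), -0.05 to 0.05 (1 h to 1 week), 0.12 to 0.22 (1 month), 0.19 to 0.27 (72 h fast to 1 h refed) and -0.38 to -0.16 (fed to 1 week refed).

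With the replicate block the counts were 21 for 72 h against fed, 22 for 12 h against 1 h, 45 for 1 week against 12 h and 1 at 1 month. Over all genes the block gave 2823, 2527, 2709 and 408 calls in these comparisons. Between samples with the same number the correlation of deviations varied. It was -0.39 to 0.54 in the fasting table, over 0.1 in 7 of 18 pairs. In the refeeding table it was -0.14 to 0.44, over 0.1 in 4 of 9 pairs. In the 1-month table it was -0.06 to -0.02, over 0.1 in 0 of 3 pairs. Samples with different numbers are not given beside them, so these values cannot decide whether the number marks a pairing.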
